A study of Mus musculus with 6 samples.

Results

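Cathepsins are proteases that work mainly inside lysosomes. The 10 cathepsin genes described here (Ctsa, Ctsb, Ctsc, Ctsd, Ctsf, Ctsh, Ctsl, Ctso, Ctss and Ctsz) were chosen by gene symbol from a table of 43346 genes, and all 10 were among the 16934 genes that passed the filter on low counts. RNA came from the cerebellum of 15-month-old mice. In the KO group, 1 female and 2 males were Tmem106b-/-, and in the WT group, 1 female and 2 males were Tmem106b+/+. The sources used here do not give the strain or how the allele was made, and state no other allele or treatment. The comparison asks what the loss of TMEM106B, a protein of lysosomal and late endosomal membranes, does to the aged cerebellum, and here in particular whether the microglial cathepsin S gene behaved like the broadly expressed cathepsin genes.

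Each mouse gave 1 library, with 25245778 to 31135185 counts. Tmem106b stood at 66.8 ± 3.64 CPM (counts scaled to library size by the TMM method) in KO and 245 ± 19.4 CPM in WT (SD, n = 3 each). KO mice had 27.2% of the level in WT (log2 fold change -1.88, SE 0.08, edgeR adjusted p = 0.000137). The counts are given per gene, and the part of the transcript they came from is unknown. The labels give the tissue as brain and the protocol as cerebellar tissue. The granule cell gene Gabra6, a marker of the cerebellar cortex, was abundant in both groups (851 ± 103 CPM in KO and 787 ± 33.0 CPM in WT, SD, n = 3 each). In KO replicate 1, the KO female, genes rich in G and C were counted low. Genes in the top quartile of GC content had a median deviation from the mean of all libraries of -0.26 on the log2 scale there, and those in the bottom quartile 0.15. The difference between these quartiles was -0.41 in that library and 0.01 to 0.19 in the others. Fold changes, ratios, levels and shares are also given below after a correction for it where this changed a statement.

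Cathepsins fall into 3 catalytic classes. Cathepsins B, C, F, H, L, O, S and Z are cysteine proteases of the papain type, cathepsin D is an aspartic protease and cathepsin A a serine carboxypeptidase. They are made as inactive precursors, sorted to lysosomes largely by mannose 6-phosphate receptors, and become active as the precursor is cut in the acid lumen. Cystatins restrain cysteine cathepsins that leak out of it. In brain, cathepsins B, D and L are made by neurons and glia, whereas cathepsin S is made chiefly by microglia and other myeloid cells and stays active at neutral pH.

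The cysteine cathepsins share a stretch around the catalytic cysteine, shown here because it is what unites 8 of the 10 genes. The 33 coding bases of 7 of these genes (GENCODE M21 transcripts, GRCm38) are given 5′ to 3′ with the codon of that cysteine in capitals.
Ctss: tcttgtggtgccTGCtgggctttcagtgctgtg
Ctsb: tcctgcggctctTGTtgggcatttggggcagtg
Ctsl: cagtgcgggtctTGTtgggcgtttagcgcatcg
Ctsz: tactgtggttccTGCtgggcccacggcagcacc
Ctsh: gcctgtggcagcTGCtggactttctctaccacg
Ctso: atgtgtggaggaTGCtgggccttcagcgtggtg
Ctsc: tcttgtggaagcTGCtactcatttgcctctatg
In Ctss the stretch lies in a coding exon at chr3:95545336-95545368 on the plus strand. No stretch of 50 bases in the transcripts of one cathepsin occurred in those of another of the 10, so reads of at least that length would not be split among them.

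Reads can still be shared with neighbouring genes, since the strand setting of the counting is not given. The transcripts of Ctss, Ctsf, Ctso and Ctsz shared 0 stretches of 50 bases with any other annotated gene. Ctsa shares 495 exon bases with Pltp, a lipid transfer protein gene on the opposite strand that had a mean of 3498 counts against 2814 for Ctsa. Ctsb shares 774 exon bases with Fdft1, which had 5.2% as many counts. A total of 32.4% of the 50-base stretches of Ctsd and 25.2% of those of Ctsl also lie in gene models (Gm49369 and Gm47123) that have no row of their own in the count table.

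Ctss rose in KO. The gene (ENSMUSG00000038642, chromosome 3, 95526786 to 95556403, mm10) encodes cathepsin S, which cuts the invariant chain during antigen presentation on MHC class II and degrades extracellular matrix. Its level was 96.0, 86.4 and 97.5 CPM in KO replicates 1 to 3, against 62.0, 53.8 and 59.7 CPM in WT replicates 1 to 3. All 3 KO mice lay above all 3 WT mice. The means were 93.3 ± 6.04 CPM in KO and 58.5 ± 4.20 CPM in WT (SD, n = 3 each), a 1.60-fold difference. On the log2 scale the fold change was 0.67 (SE 0.08, 95% interval 0.49 to 0.86), and edgeR's quasi-likelihood F test, Benjamini-Hochberg adjusted over all genes, gave an adjusted p of 0.0214. Among all genes tested, 1.58% had a fold change at least as high, Ctss included. Ctss was the 1 cathepsin of 10 to pass the threshold of 0.05, which 0.283% of all genes passed, 0.136% higher in KO and 0.148% lower. It also passed in limma-voom (with 0.254% of all genes), with the newer quasi-likelihood method (0.331%), with no sex term (0.36%), at a threshold of 0.10 (0.644%) and without KO replicate 3 (0.906%). The edgeR adjusted p was 0.0606 without KO replicate 2, 0.154 without WT replicate 2 and 0.221 without WT replicate 3, at log2 fold changes of 0.72, 0.63 and 0.71. In those fits 0.0929%, 0.00582% and 0.00581% of all genes passed. In bulk tissue, more cells of a type and more RNA per cell cannot be told apart.

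**Figure D1:**
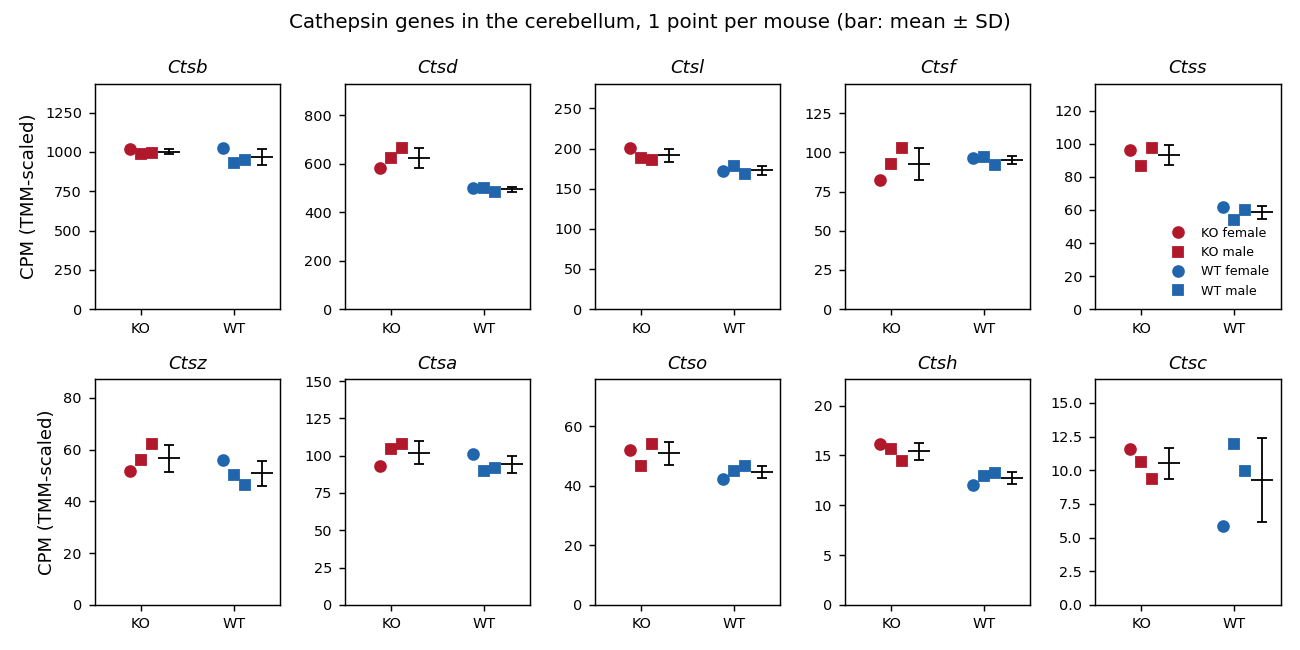
Level of each cathepsin gene in each mouse, in CPM (TMM-scaled) on a linear axis from 0; circles are females, squares are males, and the black bar is the mean ± SD of 3 mice. Ctss lies between 86.4 and 97.5 CPM in KO and between 53.8 and 62.0 CPM in WT, while the groups overlap in Ctsb, Ctsf, Ctsz, Ctsa and Ctsc.

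Ctsd came next in the strength of its evidence, but did not pass over all genes. It encodes cathepsin D (ENSMUSG00000007891, chromosome 7, 142371148 to 142388038, mm10), the main aspartic protease of lysosomes, whose loss in humans and mice causes a neuronal ceroid lipofuscinosis. Its level was 584, 626 and 665 CPM in KO replicates 1 to 3, against 499, 501 and 482 CPM in WT replicates 1 to 3. The groups did not overlap, and the KO mice were spread more widely than the WT mice (625 ± 40.6 CPM in KO and 494 ± 10.3 CPM in WT, SD, n = 3 each). The log2 fold change was 0.34 (SE 0.07, 95% interval 0.18 to 0.49, edgeR adjusted p = 0.118). DESeq2 called Ctsd at an adjusted p of 0.00212, and so did edgeR once trends with GC content and length had been taken out of every library (log2 fold change 0.40, SE 0.05, adjusted p = 0.00418). In both fits Ctss was the other cathepsin called, while DESeq2 called 1.43% and the corrected fit 1.84% of all genes. Ctsd also passed in edgeR with no filter (adjusted p = 0.0265, with 0.751% of all genes called), with males only (0.032, 0.651%), without KO replicate 1 (0.0272, 0.679%) and without WT replicate 1 (0.04, 0.54%). The last 3 fits rest on the same males.

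Upstream sequence is shown for Ctss, to set the letters bound by a lysosomal and a myeloid factor beside its values. TFEB, a regulator of lysosomal genes, binds elements with the core CACGTG. A myeloid factor, PU.1, binds elements with the core GAGGAA. Both cores were searched on both strands in the 250 bases before each start listed in RefSeq (GRCm38.p6, where 8 of the 10 genes were matched; Ctsb and Ctsh were not). The Ctss window is chr3:95526536-95526785 on the plus strand, and its match is in capitals.
Ctss: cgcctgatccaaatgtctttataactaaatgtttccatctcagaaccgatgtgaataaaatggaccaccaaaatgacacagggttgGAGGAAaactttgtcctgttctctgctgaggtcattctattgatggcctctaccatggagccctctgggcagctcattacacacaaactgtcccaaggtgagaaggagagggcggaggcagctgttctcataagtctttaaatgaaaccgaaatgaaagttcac
The Ctss window holds 1 match to the PU.1 core and 0 to the TFEB core, and the Ctsd window 2 matches to the TFEB core and 0 to the PU.1 core. Of the Ctsd window, 211 bases, with 1 of the 2 matches, lie inside the gene as the count table spans it, since RefSeq starts it further downstream. The TFEB core occurs in the same window of 6.02% of 32851 promoters and the PU.1 core in 23.2%. Ctsf, Ctsl and 1 of the 2 listed promoters of Ctsa, inside the gene span, also hold the TFEB core, and Ctsc holds the PU.1 core. A match is a description of the letters and not evidence of binding.

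The other 8 cathepsin genes did not pass. Their log2 fold changes ran from -0.05 (Ctsf) to 0.28 (Ctsh), with edgeR adjusted p-values of 0.495 to 0.895. Among all 10 genes, 9 were above 0 and 1 below, with a median log2 fold change of 0.17, beside 50.1% of all genes above 0 and a median of 0.0003 over all genes tested. An unadjusted p under 0.05 was found for 4 of the 10 (Ctss, Ctsd, Ctsh and Ctsl), all higher in KO, against 4.71% of all genes in that direction, 4.25% in the other and 8.96% in either. In 5 of the 10 (the same 4 and Ctso) the KO mice lay above the WT mice without overlap, which held for 7.77% of all genes in that direction, 6.35% in the other and 14.1% in either. The members were chosen with results of these data known, so these counts describe the family and are no test of it.

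**Figure D2:**
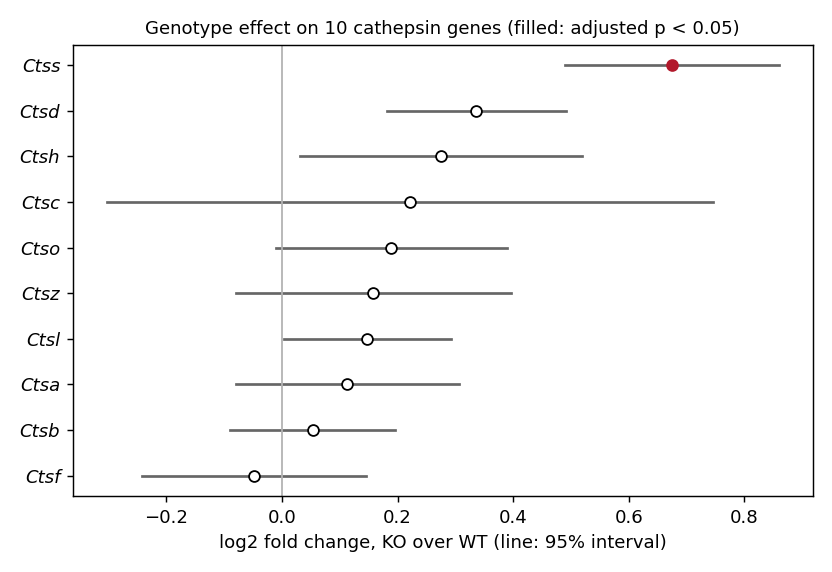
Log2 fold change of KO over WT for each cathepsin gene, with 95% intervals from edgeR's quasi-likelihood fit. Ctss is at 0.67 and filled as the call at an adjusted p under 0.05; Ctsf is at -0.05, and the intervals of Ctso, Ctsz, Ctsa, Ctsb, Ctsc and Ctsf include 0.

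Ctsb and Ctsl encode broadly expressed endopeptidases. Ctsb, the gene of cathepsin B (chromosome 14), had 1021, 989 and 996 CPM in KO replicates 1 to 3, against 1025, 929 and 946 CPM in WT replicates 1 to 3. The WT female was the highest of all mice and the groups overlapped. Its log2 fold change was 0.05 (SE 0.06), and the 95% interval of -0.09 to 0.20 leaves out the size seen for Ctss. Ctsl, the gene of cathepsin L (chromosome 13), which turns over proteins in neuronal lysosomes and processes the invariant chain in the thymus, had 201, 188 and 186 CPM in KO and 172, 179 and 168 CPM in WT. The groups did not overlap, by a narrow margin, and the log2 fold change was 0.15 (SE 0.06, edgeR adjusted p = 0.548, 95% interval 0.00 to 0.29).

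Among the exopeptidases, Ctsh, the gene of the aminopeptidase cathepsin H (chromosome 9), had 16.2, 15.6 and 14.5 CPM in KO and 12.1, 12.9 and 13.2 CPM in WT, again without overlap (log2 fold change 0.28, SE 0.11, edgeR adjusted p = 0.495). Ctsz, the gene of the carboxypeptidase cathepsin Z (chromosome 2), had 51.8, 55.8 and 62.2 CPM in KO and 55.9, 50.2 and 46.1 CPM in WT. The groups overlapped, since the KO female and, by a narrow margin, KO replicate 2 lay below the WT female. Ctsa (chromosome 2), whose product protects the lysosomal neuraminidase and beta-galactosidase in a complex, had 93.2, 105 and 108 CPM in KO and 101, 89.8 and 91.9 CPM in WT, with the same crossing of the females.

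Ctsc (chromosome 7), the gene of a dipeptidyl peptidase that activates the serine proteases of leukocyte granules, had 11.6, 10.6 and 9.34 CPM in KO and 5.85, 11.96 and 9.98 CPM in WT. The WT female, at 176 counts, was far below the other WT mice, and the 95% interval of the log2 fold change was the widest of the 10 (-0.30 to 0.74). The value was 0.22 over all mice and -0.15 in males only (edgeR adjusted p = 0.869). Ctsf (chromosome 19), the gene of cathepsin F, which is mutated in a human adult-onset ceroid lipofuscinosis, had 82.1, 92.5 and 103 CPM in KO and 96.4, 97.2 and 92.2 CPM in WT. As counted, the KO mice lay on both sides of the WT mice. After correction for GC content and length they lay within the WT range. Relative to the WT mean on the log2 scale, they then stood at 0.05, -0.0007 and 0.02, against -0.02, 0.06 and -0.04 for the WT mice. The log2 fold change of Ctsf was -0.05 and changed sign with males only (0.04) and after that correction (0.02). Ctso (chromosome 3), a less studied cysteine cathepsin, had 52.1, 46.7 and 54.1 CPM in KO and 42.4, 45.1 and 46.6 CPM in WT. The groups did not overlap, the lowest KO mouse being close to the highest WT mouse (log2 fold change 0.19, SE 0.09, edgeR adjusted p = 0.589). After correction for GC content and length they overlapped, and the log2 fold change was 0.13 (SE 0.08). KO replicate 2 then stood 0.03 above the WT mean on the log2 scale and WT replicate 3 stood 0.05 above it.

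The contrast between Ctss and broadly expressed cathepsins was also measured within each library, where library scaling plays no part. Per 100 counts of Ctsb there were 9.41, 8.74 and 9.79 counts of Ctss in KO replicates 1 to 3, against 6.05, 5.80 and 6.31 in WT replicates 1 to 3. Per 100 counts of Ctsl there were 47.9, 45.9 and 52.4 in KO, against 36.0, 30.2 and 35.6 in WT. Per 100 counts of Ctsd there were 16.4, 13.8 and 14.7 in KO, against 12.4, 10.7 and 12.4 in WT. The groups did not overlap for any of the 3 partners as counted. After correction for GC content and length they overlapped for Ctsd, where the log2 ratio relative to the WT mean was 0.13, 0.18 and 0.38 in KO replicates 1 to 3, against 0.14, -0.17 and 0.04 in WT replicates 1 to 3. They did not overlap for Ctsb and Ctsl. The log2 ratio as counted was higher in KO by 0.62 to Ctsb, 0.53 to Ctsl and 0.34 to Ctsd, and after the correction by 0.59, 0.53 and 0.23. The exact two-sided permutation test gave p = 0.1 for each (0.1 after adjustment over the 3), the smallest p that 3 mice against 3 allow, so no ratio could pass 0.05.

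Levels per length, in RPKM (CPM per kilobase of the gene length in the table), ordered the genes almost alike in the groups. In KO, Ctsd stood highest (248 ± 16.1 RPKM), followed by Ctsb (211 ± 3.60), Ctsl (97.2 ± 4.01), Ctss (68.7 ± 4.44), Ctsf (46.8 ± 5.23) and Ctsz (39.3 ± 3.65; SD, n = 3 each). In WT, Ctsb (204 ± 10.8 RPKM) and Ctsd (196 ± 4.09) came first, followed by Ctsl (87.7 ± 2.72), Ctsf (48.2 ± 1.37), Ctss (43.1 ± 3.10) and Ctsz (35.2 ± 3.41; SD, n = 3 each). On these lengths Ctss stood above Ctsf in 3 of 3 KO mice and below it in 3 of 3 WT mice, though after correction for GC content and length the WT ranges of Ctss and Ctsf overlapped. Neighbours whose ranges overlapped were Ctsf and Ctsz in KO and Ctsb and Ctsd in WT. Ctsa, Ctso, Ctsh and Ctsc held the last places in both groups, down to 1.81 ± 0.20 RPKM for Ctsc in KO and 1.60 ± 0.54 RPKM in WT. The order rests on the lengths in the table, which differ from merged exons of GENCODE M21 for Ctsl (1971 against 6489 bases), Ctsf (1975 against 5041) and Ctsb (4739 against 6051). With merged exons Ctsd stood first, Ctsb next and Ctss after it in both groups, and Ctsl was at 29.5 ± 1.22 RPKM in KO and 26.6 ± 0.83 RPKM in WT (SD, n = 3 each), below Ctss and Ctsz.

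Summed over the 10 genes, the level was 733, 738 and 774 RPKM in KO replicates 1 to 3, against 668, 642 and 632 RPKM in WT replicates 1 to 3, a mean 15.6% higher in KO. Ctss made up 9.65%, 8.62% and 9.28% of that sum in KO, against 6.83%, 6.17% and 6.96% in WT, a difference of 2.53 percentage points. It was 2.21 points after correction for GC content and length and 1.24 points as a share of summed counts without length scaling. Without Ctss, the sum of the other 9 genes was still 662, 675 and 702 RPKM in KO, against 623, 602 and 588 RPKM in WT. Ctsb made up 28.3 ± 1.12% in KO and 31.5 ± 0.92% in WT, and Ctsd 33.1 ± 1.32% in KO and 30.3 ± 0.68% in WT (SD, n = 3 each). No test was made of sums or shares over chosen genes.

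**Figure D3:**
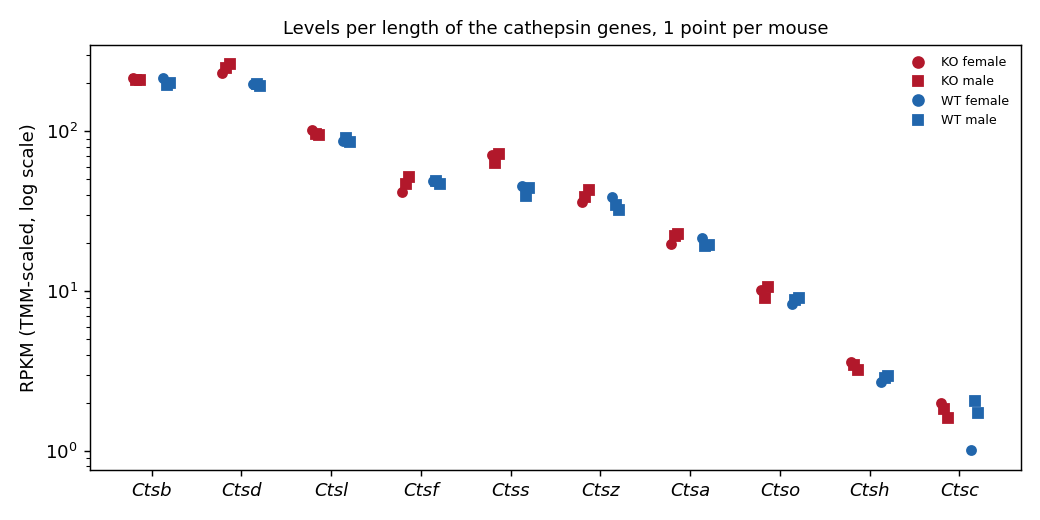
Level per length of each cathepsin gene in each mouse, in RPKM on a log axis, with genes ordered by their WT mean. Ctsd and Ctsb lead, Ctsc is lowest at 1.01 to 2.06 RPKM, and Ctss lies between 63.6 and 71.8 RPKM in KO and between 39.6 and 45.6 RPKM in WT.

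The spread within groups followed the GC content of the genes in KO replicate 1. In all 4 cathepsin genes above 54% GC content (Ctsa, Ctsd, Ctsf and Ctsz) this mouse was the lowest of the KO mice. In 4 of the 6 below 54% (Ctsb, Ctsc, Ctsh and Ctsl) it was the highest. For Ctsz, at 57.3% GC content, the trend fitted to KO replicate 1 was -0.26 on the log2 scale, and for Ctsc, at 41.1%, it was 0.15. After removal of the GC and length trends the KO mice stood at 0.17, 0.15 and 0.14 above the WT mean on the log2 scale for Ctsa, against 0.09, -0.06 and -0.03 for the WT mice. Groups that did not overlap were then found in 6 of the 10 genes (Ctsa, Ctsd, Ctsh, Ctsl, Ctss and Ctsz), all higher in KO, against 8.13% of all genes in that direction and 16.7% in either. Ctss remained at a log2 fold change of 0.63 (SE 0.07, edgeR adjusted p = 0.00205), and Ctsa (0.15, SE 0.05, edgeR adjusted p = 0.209) and Ctsz (0.23, SE 0.06, 0.111) did not pass.

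**Figure D4:**
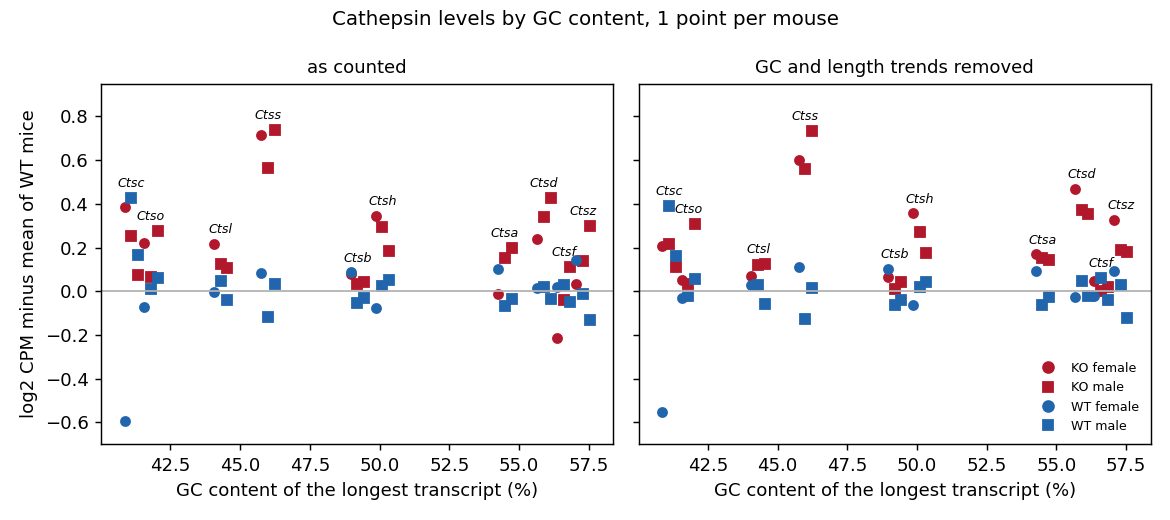
Log2 level of each cathepsin gene relative to the WT mean, by the GC content of its longest transcript, as counted (left) and after correction of each library for GC content and length (right); points of a gene are set slightly apart. The KO female falls below the KO males in the 4 genes above 54% on the left, while Ctss stays above its WT mice in both panels.

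Neither sex nor its interaction with genotype passed for any of the 10 genes in edgeR (sex adjusted p-values 0.768 to 0.992), where the sex term was called in 0.0354% of all genes and had an unadjusted p under 0.05 in 6.68% of them and in 0 of the 10. With 1 female per genotype, the KO minus WT difference for Ctss was 0.63 in females and 0.69 in males on the log2 scale. For Ctsd it was 0.23 and 0.39, all as counted. After correction for GC content and length, the Ctsd difference was larger in females. Relative to the WT mean, the KO and WT females stood at 0.47 and -0.02. The KO males stood at 0.37 and 0.35 and the WT males at 0.05 and -0.02. For Ctsz and Ctsa the KO female then lay above the WT female (0.33 against 0.09, and 0.17 against 0.09). The interaction below is without this correction. The interaction was lowest in adjusted p for Ctsc (1.13, SE 0.27, edgeR adjusted p = 0.0929), where the difference was 0.98 in females and -0.14 in males. It was negative for Ctsa (-0.34, SE 0.11, edgeR adjusted p = 0.157) and Ctsz (-0.40, SE 0.15, 0.201), genes of high GC content in which KO replicate 1 was the lowest KO mouse. An unadjusted p under 0.05 for the interaction was found for these 3 genes and for 18.8% of all genes, and no gene passed after adjustment.

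Cystatin and serpin genes, taken as possible inhibitors of cathepsins, gave 1 call in edgeR and in limma-voom. DESeq2 called 2 of them and the fit corrected for GC content and length 3. Over all genes, edgeR called 0.283%, limma-voom 0.254%, DESeq2 1.43% and the corrected fit 1.84%. Of 8 such genes tested, Serpina3n, a serpin of reactive astrocytes, rose. It stood at 12.6 ± 1.80 CPM in KO and 5.26 ± 1.49 CPM in WT (SD, n = 3 each). The log2 fold change of Serpina3n was 1.28 (SE 0.13, edgeR adjusted p = 0.0134). Whether its product inhibits any of the cathepsins described here was not tested. Cst7, the gene of cystatin F, which restrains cathepsin C and other lysosomal cathepsins in myeloid cells, had 2.09, 2.03 and 2.61 CPM in KO, against 0.90, 0.20 and 0.13 CPM in WT. The groups did not overlap, and WT replicate 1 stood above the other WT mice. Its log2 fold change was 2.57 (SE 0.49, edgeR adjusted p = 0.115). Serpina3g, a serpin that blocks cathepsins of the papain type, had a log2 fold change of 1.25 at 0.75 CPM in KO and 0.31 CPM in WT (SE 0.51, edgeR adjusted p = 0.518). Cst3, the gene of the secreted cystatin C, was at 272 ± 29.4 CPM in KO and 240 ± 17.5 CPM in WT, and Cstb, the gene of the cytosolic cystatin B, at 22.4 ± 0.50 CPM in KO and 23.6 ± 1.63 CPM in WT (SD, n = 3 each). Their log2 fold changes of 0.18 and -0.07 had edgeR adjusted p-values of 0.648 and 0.848. The median of the 8 genes was 0.09.

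Genes that sort and mature cathepsins did not pass. Of 16 tested, 0 were called, and their median log2 fold change was 0.00. An unadjusted p under 0.05 in edgeR was found for 2, both lower in KO, against 4.25% of all genes in that direction. The 2 were the sorting receptors Sort1 (-0.19, SE 0.06, edgeR adjusted p = 0.379) and Sorl1 (-0.15, SE 0.06, 0.509). DESeq2 and limma-voom called 0 of the 16. The mannose 6-phosphate receptor genes M6pr and Igf2r were at 0.04 and 0.15 on that scale (SE 0.06 and 0.09) and had edgeR adjusted p-values of 0.881 and 0.696. Lgmn, whose product legumain cuts cathepsin precursors, was at 115.3 ± 1.91 CPM in KO and 115.1 ± 2.93 CPM in WT (SD, n = 3 each), with a 95% interval of the log2 fold change from -0.14 to 0.15. Psap, the gene of a cathepsin D partner and sphingolipid activator precursor, was at -0.08 (SE 0.09, edgeR adjusted p = 0.844), and Grn, the progranulin gene, at 0.09 (SE 0.10, 0.827).

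Other lysosomal peptidases and partners of cathepsin A likewise gave 0 calls of 9 in edgeR, DESeq2 and limma-voom, with a median log2 fold change of 0.02 and 2 at an unadjusted p under 0.05 in edgeR, both lower in KO. Over all genes, 4.25% had such a p in that direction. Glb1, the beta-galactosidase that cathepsin A protects, was at 18.8 ± 1.21 CPM in KO and 23.1 ± 2.06 CPM in WT (SD, n = 3 each; log2 fold change -0.29, SE 0.10, edgeR adjusted p = 0.429). Pepd, the gene of a dipeptidase that works mainly in the cytosol although it stands in this list, was at -0.34 (SE 0.13, edgeR adjusted p = 0.504). Neu1, the neuraminidase of the same complex, was at 0.02 (SE 0.09, edgeR adjusted p = 0.958), and Tpp1, a tripeptidyl peptidase, at 0.13 (SE 0.06, 0.639). Of 12 TFEB-family genes and their targets, Gpnmb, a glycoprotein gene of phagocytes, rose (1.20, SE 0.15, edgeR adjusted p = 0.0222) and the median was 0.00. Among all genes, 0.136% were called higher in KO in edgeR. Next by p were Hexa, a hexosaminidase subunit gene (0.19, SE 0.07, edgeR adjusted p = 0.489), Lamp2, a lysosomal membrane protein gene (0.13, SE 0.09, 0.724), and Atp6v0d1, a proton pump subunit gene (-0.05, SE 0.06, 0.853). Tfeb itself was at 7.34 ± 1.51 CPM in KO and 7.76 ± 1.30 CPM in WT (SD, n = 3 each), a log2 fold change of -0.08 (SE 0.19, edgeR adjusted p = 0.925).

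The MHC class II pathway, which cathepsin S serves, gave 0 calls of 7 genes tested in edgeR, DESeq2 and limma-voom, with 0 at an unadjusted p under 0.05 in edgeR. The invariant chain gene Cd74 was at 7.68 ± 2.19 CPM in KO and 7.28 ± 4.39 CPM in WT (SD, n = 3 each), with a 95% interval of the log2 fold change from -0.39 to 0.72. The lowest p-values in the list were those of the class II chain gene H2-Eb1 (0.41, SE 0.21, edgeR adjusted p = 0.646) and the peptide loading genes H2-DMb1 (0.34, SE 0.22, 0.712) and H2-DMa (-0.24, SE 0.16, 0.713). The summed level of the list was 16.4 to 26.7 CPM in KO and 11.8 to 30.1 CPM in WT, so the groups overlapped.

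Cathepsin genes outside the 10 were at low levels. Of 13 looked for, 10 had 0 counts in all 6 libraries, which allows up to 0.0174 CPM over the 6 (3 counts, counting error only). These were Ctsg and the 9 genes of a family expressed in the mouse placenta. Ctsk, the osteoclast cathepsin, was at 2.25 ± 0.11 CPM in KO and 2.31 ± 0.69 CPM in WT, and Ctsw, a lymphocyte cathepsin, at 0.63 ± 0.14 CPM in KO and 0.83 ± 0.07 CPM in WT (SD, n = 3 each), with edgeR adjusted p-values of 0.988 and 0.756. Ctse, with at most 8 counts in a library, was not tested.

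Part of the microglia markers rose. Of 20 homeostatic microglia markers, all tested and none at 0 counts, 2 rose, among them Fcrls, a receptor-like gene of microglia (1.46 on the log2 scale, edgeR adjusted p = 0.0214), and 13 had an unadjusted p under 0.05 in edgeR, all higher in KO. DESeq2 and the fit corrected for GC content and length called 8 each, and limma-voom 1. Over all genes, 0.136% were called higher in KO in edgeR and 4.71% had an unadjusted p under 0.05 in that direction. DESeq2 called 1.43% of all genes, the corrected fit 1.84% and limma-voom 0.254%. The log2 fold change was below 0 for 4 (Sall1 at -0.33, Selplg at -0.16, Tmem119 and Siglech at -0.01), and P2ry12 was at 0.08. None of these 5 passed in edgeR. The 20 genes summed to 420, 412 and 476 CPM in KO replicates 1 to 3, against 343, 278 and 324 CPM in WT replicates 1 to 3. Per 100 CPM of that sum, Ctss stood at 22.9, 21.0 and 20.5 CPM in KO, against 18.1, 19.4 and 18.4 CPM in WT, without overlap. That ratio depends on the genes summed. Within the list, Fcrls (1.46), Trem2 (0.94), Tyrobp (0.88), C1qc (0.84), C1qa (0.79) and C1qb (0.74) had log2 fold changes above the 0.67 of Ctss. The rest of the list lay below it, and of those above it only Fcrls passed in edgeR. Of 13 gene models of activated microglia, 5 rose (Lyz2, Lpl, Lgals3, Cd68 and 1 of 2 models of Clec7a), while limma-voom called 5 and DESeq2 and the corrected fit 8 each. Their summed level was 1014 to 1327 CPM in KO and 943 to 983 CPM in WT, of which Apoe, abundant in astrocytes too, made up 61.7% to 71.7% in KO and 69.4% to 73.1% in WT. Apoe overlapped between the groups (626, 843 and 951 CPM in KO, against 719, 654 and 673 CPM in WT). Without it the sum was 388, 398 and 376 CPM in KO, against 264, 289 and 290 CPM in WT. The part of microglial number or state in the Ctss result was not tested.

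**Figure D5:**
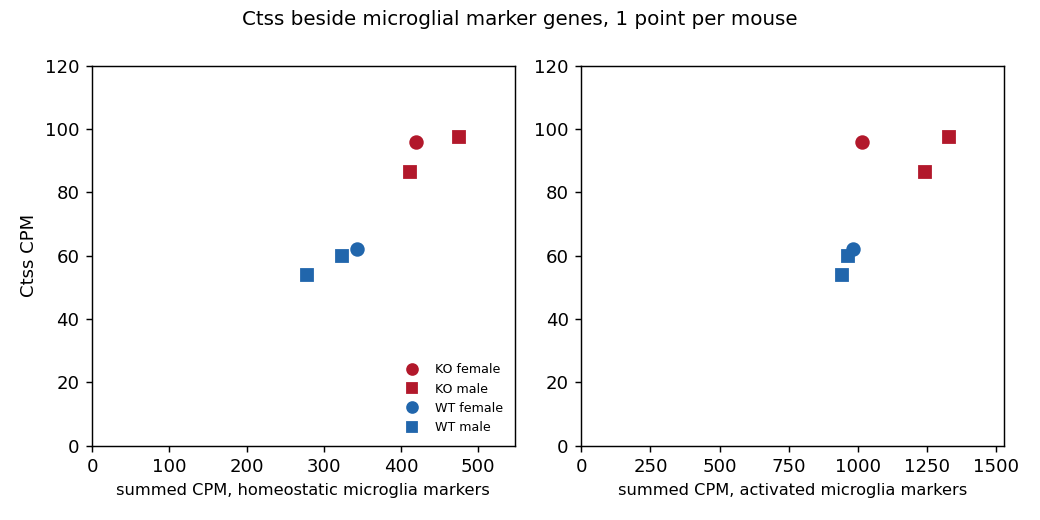
Level of Ctss against the summed level of homeostatic (left) and activated (right) microglia markers in each mouse, in CPM (TMM-scaled). On the left the KO mice sit at 412 to 476 CPM of markers with Ctss above 86, and the WT mice at 278 to 343 CPM with Ctss below 63; the sum on the right is mostly Apoe.

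Markers of other cells that could contribute cathepsins were measured alongside. Border macrophage and monocyte markers summed to 6.84 to 9.36 CPM in KO and 4.92 to 6.52 CPM in WT, with 0 of 7 called. Lymphocyte and neutrophil markers summed to 2.86 to 5.08 CPM in KO and 1.51 to 3.03 CPM in WT, with 0 of 4 called. Astrocyte markers summed to 6702 to 7219 CPM in KO and 6857 to 7238 CPM in WT, and Gfap alone of the 10 was called in edgeR, higher in KO. Purkinje cell markers summed to 7880 to 9021 CPM in KO and 11715 to 12654 CPM in WT, with 5 of 12 called in edgeR, all lower in KO, 7 in DESeq2 and 8 in the corrected fit. Over all genes, edgeR called 0.136% higher and 0.148% lower in KO. DESeq2 called 1.43% and the corrected fit 1.84% in either direction. Choroid plexus markers ranged from 1616 to 5047 CPM in KO and from 80.7 to 4688 CPM in WT. Oligodendrocyte, granule cell and endothelial markers gave 0 calls. The part of these cells in the cathepsin levels was not tested.

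Other genes were ranked by how closely their pattern over the 6 mice followed that of Ctss. Among 11901 genes that averaged 5 CPM or more, compared by the root mean square difference of log2 levels relative to the WT mean, the nearest included Cebpa (0.10), Mxra7 (0.10), Fcgr3 (0.11) and Ly86 (0.11). Cebpa encodes a myeloid transcription factor, Fcgr3 an Fc receptor of phagocytes, and Ly86 a partner of a toll-like receptor relative. Fcgr3 had 12.9, 11.1 and 12.2 CPM in KO, against 9.35, 6.62 and 8.22 CPM in WT. The groups did not overlap, and its log2 fold change was 0.59 (SE 0.13, edgeR adjusted p = 0.165). Of the other cathepsins, Ctsd was the nearest at a difference of 0.26, ranked 94, and Ctsf the farthest at 0.53. The measure favours genes with a change of similar size, and all points share the same 6 libraries.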

How the data were processed

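Raw counts per gene, whole numbers for 6 mice, were deposited by the authors with gene lengths; per the submitters' processing notes, reads were aligned with STAR to mm10. For the counting tool, strand setting and annotation: not given in the sources used here. CPM and RPKM were computed from the counts. All 37 mitochondrial genes hold 0 counts. The fit used edgeR 4.0.16 in R 4.3.3: filterByExpr (minimum count 10, minimum total 15), TMM scaling, a model of sex and genotype (3 residual degrees of freedom), and a two-sided quasi-likelihood F test adjusted by Benjamini-Hochberg over all genes, with a threshold of 0.05. SE is the absolute log2 fold change over the square root of F. The biological coefficient of variation of 11.2% limits abundant genes and counting error low ones. DESeq2 1.42.0, limma-voom (limma 3.58.1), other scalings and filters, males only, each mouse left out, and GC and length offsets (loess, span 0.5) were alternatives. No library was a copy of another of its group, since pairs within a group gave a chi-square of 8.67 to 37.5 per degree of freedom. Replicate numbers follow accession order. The fit was tested on simulated counts. The 10 members and 16 other gene lists were chosen with earlier results of these data known; 200 of 201 list entries were found. Genes named were the members, list members past the threshold with the 3 next by p in each pathway list, 12 fixed genes, abundant cell type markers and the 5 genes most like Ctss, except items not reported here; others named with their values were chosen after these were seen.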

Additional observations from a re-analysis of the deposited data

How the results depend on the processing

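Ctss kept a positive log2 fold change in all 15 alternative fits and passed in 12, with 0.63 to 0.72 when a mouse was left out. The 12 are not independent. Those with males only, without KO replicate 1 and without WT replicate 1 (0.69, 0.69 and 0.70) rest on the same males. The sex term takes up a lone female. The number of cathepsins past the threshold, 1, was 2 with no filter, in DESeq2, with males only and with GC content and length offsets, and 0 to 2 when a mouse was left out. The number of genes past the threshold, 48, was 75 with RLE size factors, 199 with no filter, 76 with a mean of at least 1 CPM, 232 in DESeq2, 111 with males only, 312 with GC and length offsets, 109 at a threshold of 0.10, and 1 to 156 when a mouse was left out. Ctsc and Ctsf changed sign. Ctsc was at -0.15 with males only, -0.15 without KO replicate 1 and -0.14 without WT replicate 1. As for Ctss, these fits rest on the same males and are not separate evidence. Ctsf was at 0.035 with males only, and at 0.035 and 0.044 without KO replicate 1 and WT replicate 1, again the same males. It was at 0.021 with GC and length offsets. With a mouse left out, Ctsc ran from -0.15 to 0.40 and Ctsf from -0.099 to 0.044. Why the sign differed in the fits named was not tested. The share of Ctss in summed cathepsin RPKM was 2.53 percentage points higher in KO, 1.24 points when counts were summed without length scaling, and 2.84 points with lengths of merged M21 exons, and 2.21 with GC and length offsets, alternatives chosen after seeing the data. The 3 ratios of Ctss to other cathepsins kept their direction in all 9 alternatives, of which the GC and length offsets were added after seeing the data. No paired analysis was possible because the labels give no replicate numbers that match mice across genotypes; the titles share a mark (TM2) between 1 WT and 2 KO mice, and what it stands for is not given. Depth limits low genes such as Cst7, which had 4 to 72 counts a library.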
